A study of Mus musculus with 6 samples.

Results

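The genes described here are Nr2e1, the COUP-TF genes Nr2f1, Nr2f2 and Nr2f6, the testicular receptor genes Nr2c1 and Nr2c2, Nr6a1, and the ROR genes Rora and Rorb. All encode orphan nuclear receptors, which are transcription factors with the fold of a hormone receptor that were named before any ligand was known. They were chosen by symbol: each probe set annotated with a single gene was taken where that gene was in the list. This gave 39 of the 45037 probe sets tested and all 9 of the listed genes, of 18193 genes with a probe set of their own.

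The question of the experiment was which transcripts differ in retinal progenitor cells (RPCs) that have lost the transcription factor Pax6. Control RPCs came from embryos with the α-Cre transgene and intact Pax6 (Pax6 +/+;α-Cre), and mutant RPCs from embryos with the same transgene and a floxed Pax6 gene (Pax6 loxP/loxP;α-Cre), all of ICR background and at embryonic day 12. In α-Cre, a Pax6 promoter and a peripheral retina enhancer of Pax6 drive Cre and GFP, so both groups carry Cre and sorting for GFP takes cells of the distal optic cup. Only the mutants carry loxP sites, which flank the start codon and the exons of the paired domain, and each of the 3 control and 3 mutant samples was a pool of sorted cells from several embryos. RNA of each pool was hybridised to 1 Affymetrix MOE430-2 array, on which a gene is read by 1 or more probe sets.

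Nr2e1 (tailless, Tlx) is a repressor that keeps neural stem cells and RPCs dividing, and the retina and forebrain of mice without it are small. The COUP-TFs pattern the optic cup and are also known from mesenchyme and developing vessels. Rorb is needed for photoreceptor, amacrine and horizontal cells, and Rora for Purkinje cells of the cerebellum and for cone opsin genes. Nr6a1 silences germline genes as embryonic cells differentiate, and Nr2c1 and Nr2c2 hold embryonic globin genes in check.

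In Pax6-deficient RPCs Nr2e1 and Rorb were lower and Rora was higher. A probe set was called where the difference was at least 1.5-fold, with p under 0.05 in limma's moderated test and a false discovery rate (Benjamini-Hochberg adjusted p over all probe sets) under 0.10. Of the 39 probe sets of these receptors, 7 were called (17.9%), against 2.65% of all probe sets. The 3 called higher (background 1.67%) all belonged to Rora, and the 4 called lower (background 0.984%) were both probe sets of Nr2e1 and 2 of the 3 of Rorb. Taking each gene by its brightest probe set, 1 gene was higher (background 2.28%) and 2 were lower (background 0.918%). In all 3 of the 9 genes were called, against 3.2% of all genes. The receptors were chosen with earlier results of these data known, so these shares are a description only.

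The other 6 genes, Nr2f1, Nr2f2, Nr2f6, Nr2c1, Nr2c2 and Nr6a1, were not called by their brightest probe set. Their log2 fold changes lay between -0.11 and 0.17, and all 6 of the 95% intervals, with bounds from -0.27 to 0.35, lay within the 1.5-fold limits. The median log2 fold change was 0.02 over the 39 probe sets and -0.02 over all probe sets. In 14 of the 39 the mutant and control arrays did not overlap (35.9%, against 28.2% of all probe sets). The mutant arrays were the higher ones in 7 of these (background 13.2%) and the lower ones in 7 (background 15.1%).

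**Figure D1:**
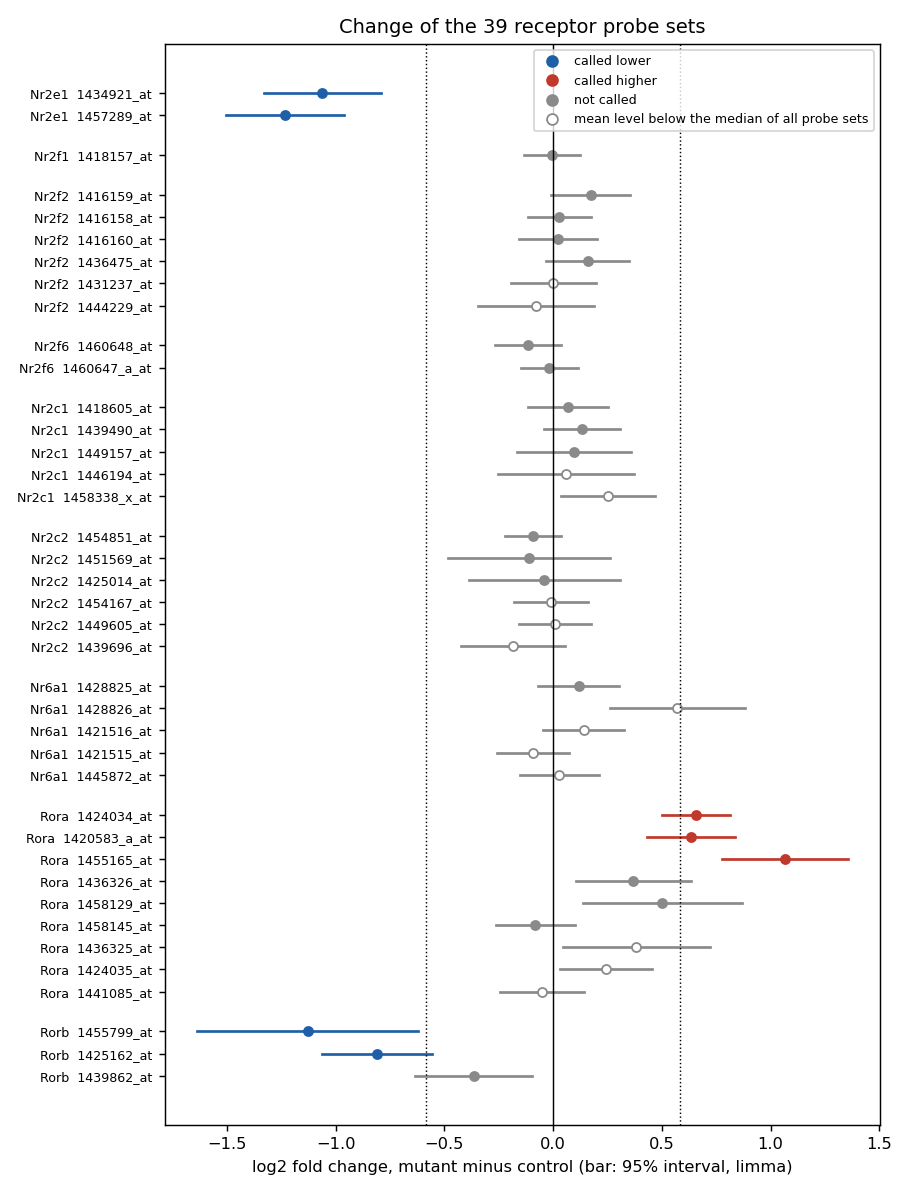
Log2 fold change (mutant minus control) of each of the 39 probe sets of the 9 receptor genes, with its 95% interval from limma; dotted lines mark 1.5-fold, and open circles mark probe sets with a mean level below the median of all probe sets. Both probe sets of Nr2e1 and 2 of Rorb lie beyond the left line, 3 of Rora lie beyond the right line, and the intervals of the COUP-TF genes stay between the lines.

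The arrays measure a mixture of cells, in which fewer cells of a type and less RNA per cell cannot be told apart. Pax6 itself had 5 probe sets, and 1 of them (1425960_s_at) was lower in mutant RPCs, at 6.34, 6.44 and 6.14 (log2 intensity) in control and 4.79, 4.88 and 4.45 in mutant RPCs. The other 4 had log2 fold changes from -0.22 to 0.10 and were not called, and where they lie relative to the floxed exons was not analysed here. Correlations between arrays over all probe sets were 0.991 to 0.997. None of the 11 measured RPC markers had a mean below the median level of all probe sets, but their summed linear intensity was 9098 to 9848 on control and 6018 to 6220 on mutant arrays, with 4 genes lower and none higher. Markers of ganglion cells and newborn neurons were lower as well (6 of 13 genes, sums of 2127 to 2824 and 1105 to 1205). Over all genes by the brightest probe set, 0.918% were called lower and 2.28% higher. Markers of other eye tissues were higher in the mutant pools: pigment epithelium (8 of 13 genes, sums of 6412 to 7812 and 10473 to 10537), lens (3 of 13, 1448 to 2817 and 3225 to 3802), periocular mesenchyme (6 of 11, 677 to 724 and 1035 to 1381) and endothelium (5 of 12, 854 to 1112 and 1436 to 1555). Of the optic stalk markers 1 of 3 was higher (sums of 325 to 332 and 299 to 338), and RMA sets no marker to 0. With 1 array left out the counts fell furthest to 3 newborn neuron and 0 endothelium genes (without mutant replicate 2), 0 lens genes (without mutant replicate 1 or 3), 3 mesenchyme genes (without mutant replicate 1) and 4 pigment epithelium genes (without control replicate 2), and rose furthest to 10 newborn neuron genes (without control replicate 1) and 5 lens genes (without control replicate 2). The part of these shifts in the results on the receptors was not tested.

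The sequences in front of the called genes are shown because Pax6 is a DNA-binding protein with a paired domain and a homeodomain, and because nuclear receptors can bind their own promoters. Each is the 250 bases that precede a transcription start site in RefSeq (mouse build GRCm38.p6), written 5′ to 3′ on the strand of the gene. Capitals mark the only searched motif of nuclear receptors or Pax6 that occurs in them, a palindrome bound by pairs of homeodomains, TAAT and its reverse complement ATTA with 3 bases of any kind between them. The windows are chr10:42583591-42583840 (minus strand) for Nr2e1, chr19:19111197-19111446 and chr19:19001118-19001367 (both minus strand) for the 2 starts of Rorb, and chr9:68653536-68653785 (plus strand) for Rora.
Nr2e1: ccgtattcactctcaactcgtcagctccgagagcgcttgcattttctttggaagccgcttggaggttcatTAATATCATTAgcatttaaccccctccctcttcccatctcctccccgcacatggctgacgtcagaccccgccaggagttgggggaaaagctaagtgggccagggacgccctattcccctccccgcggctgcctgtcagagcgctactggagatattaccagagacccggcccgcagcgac
Rorb, start 1: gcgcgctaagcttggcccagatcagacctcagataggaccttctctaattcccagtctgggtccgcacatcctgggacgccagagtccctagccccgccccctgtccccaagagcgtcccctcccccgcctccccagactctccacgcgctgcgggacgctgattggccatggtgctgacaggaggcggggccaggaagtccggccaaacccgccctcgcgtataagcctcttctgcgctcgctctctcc
Rorb, start 2: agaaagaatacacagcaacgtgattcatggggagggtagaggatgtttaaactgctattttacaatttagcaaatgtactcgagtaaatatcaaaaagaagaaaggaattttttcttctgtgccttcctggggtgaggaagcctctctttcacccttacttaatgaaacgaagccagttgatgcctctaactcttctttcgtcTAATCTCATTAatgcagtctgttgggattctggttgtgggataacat
Rora: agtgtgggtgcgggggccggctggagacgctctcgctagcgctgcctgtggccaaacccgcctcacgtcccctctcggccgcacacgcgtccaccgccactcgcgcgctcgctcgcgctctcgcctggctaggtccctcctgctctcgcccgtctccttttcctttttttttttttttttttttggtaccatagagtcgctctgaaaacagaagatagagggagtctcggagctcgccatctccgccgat

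The homeodomain palindrome lies at positions -180 to -170 from the start of Nr2e1 and -47 to -37 from start 2 of Rorb (-1 is the base before the start). It occurs in 0.46% of the 32817 windows of this length in the table, and in 2 of the 12 windows of the 9 receptor genes, which are these. The form with 2 bases between TAAT and ATTA (0.384% of all windows), occurs in 1 of the 12, in front of Nr6a1. TTCACGC, the core of the Pax6 paired domain site (1.03% of all windows), and AAGTCA, the hexamer preferred by Nr2e1 (13.1%), occur in none of the 12. The general nuclear receptor hexamer AGGTCA (14% of all windows) occurs in front of Nr6a1 alone. The window of Rora holds none of the 8 motifs searched on both strands. Of the general promoter elements, GGGCGG and CCAAT each occur in 4 of the 12 windows (32.7% and 33.8% of all windows) and TATAAA in none (12.4%). These are matches of letters within short windows, and binding was not measured.

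Nr2e1 was lower on both of its probe sets. On the brighter one, 1434921_at, the log2 intensities were 7.82, 7.99 and 7.91 in control and 6.63, 6.85 and 7.06 in mutant RPCs. On 1457289_at they were 5.39, 5.40 and 5.42 in control and 3.90, 4.33 and 4.28 in mutant RPCs. The groups lay well apart on both, and mutant array 1 was the lowest on both. The level on 1434921_at was 7.91 ± 0.08 on control and 6.85 ± 0.22 on mutant arrays (mean ± SD, n = 3), and the log2 fold change was -1.06 (95% interval -1.33 to -0.79, limma adjusted p = 0.00668), or 2.09-fold lower. That of 1457289_at was -1.23 (standard error 0.11, limma adjusted p = 0.0043), or 2.35-fold lower. The difference between these changes was 0.17 (standard error 0.09), with p = 0.2 in an exact two-sided permutation test, where 3 arrays against 3 allow no p under 0.1 and 4 pairs of probe sets were compared (adjusted p = 0.4). By its brightest probe set Nr2e1 had the 40th largest fall among 18193 genes.

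Rorb, the receptor of photoreceptor and amacrine cell development, was lower on 2 of its 3 probe sets. On 1455799_at, the brightest, the log2 intensities were 8.88, 8.28 and 8.73 in control and 7.08, 7.73 and 7.71 in mutant RPCs. On 1425162_at they were 7.25, 7.31 and 7.05 in control and 6.21, 6.42 and 6.54 in mutant RPCs. On 1439862_at they were 6.86, 6.73 and 7.12 in control and 6.69, 6.45 and 6.48 in mutant RPCs. Every mutant array was below every control array on all 3. Mutant array 1 was the lowest of the mutant arrays on the first pair and the highest on the last. The log2 fold change was -1.13 for 1455799_at (95% interval -1.64 to -0.62, limma adjusted p = 0.033) and -0.81 for 1425162_at (95% interval -1.06 to -0.56, limma adjusted p = 0.011), or 2.19-fold and 1.75-fold lower. For 1439862_at it was -0.36 (95% interval -0.63 to -0.10, limma adjusted p = 0.126), which was not called. The changes on the called pair differed by -0.32 (standard error 0.26, exact two-sided permutation p = 0.3, adjusted p = 0.4). By 1455799_at Rorb had the 33rd largest fall of all genes. Its arrays spread more than those of Nr2e1 (SD 0.31 in control and 0.37 in mutant RPCs), and without the moderation of the variance it was not called (adjusted p = 0.173). Which of the 2 transcription starts each probe set reads was not analysed here.

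Rora, the receptor known from Purkinje cells, was higher on 3 of its 9 probe sets, and these were its 3 brightest. On 1424034_at the log2 intensities were 6.27, 6.34 and 6.38 in control and 6.91, 6.99 and 7.06 in mutant RPCs. On 1420583_a_at they were 5.57, 5.68 and 5.46 in control and 6.22, 6.30 and 6.09 in mutant RPCs. On 1455165_at they were 5.06, 5.25 and 5.53 in control and 6.38, 6.23 and 6.42 in mutant RPCs. The lowest mutant array was above the highest control array on each. The log2 fold changes were 0.66 (95% interval 0.50 to 0.81, limma adjusted p = 0.00569), 0.63 (95% interval 0.43 to 0.84, limma adjusted p = 0.0118) and 1.06 (95% interval 0.78 to 1.35, limma adjusted p = 0.0081), which are 1.58-fold, 1.55-fold and 2.09-fold. The change on 1455165_at exceeded that on 1424034_at by 0.41 (standard error 0.13), with the smallest p that an exact two-sided permutation test can give here, 0.1 (adjusted p = 0.4). 1424034_at and 1420583_a_at differed by 0.02 in their changes (standard error 0.12, exact permutation p = 0.7).

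Of the 6 remaining probe sets of Rora, 4 had a positive log2 fold change without being called, 0.50 for 1458129_at, 0.38 for 1436325_at, 0.37 for 1436326_at and 0.24 for 1424035_at. The mutant arrays lay above all control arrays on 3 of these 4, and overlapped them on 1436325_at. The last 2 had the opposite sign. On 1458145_at the log2 intensities were 3.93, 3.95 and 3.93 in control and 3.71, 3.97 and 3.88 in mutant RPCs, and on 1441085_at 3.28, 3.37 and 3.20 in control and 3.36, 3.16 and 3.18 in mutant RPCs. The groups overlapped on both, and the log2 fold changes were -0.08 and -0.05. 1424034_at and 1424035_at were designed on 1 source sequence, yet their log2 fold changes were 0.66 and 0.24; their mean log2 intensities were 6.66 and 3.51. 1420583_a_at was not called without control replicate 3 or without mutant replicate 2 (0.58 in each case). By the median of its probe set levels on each array, Rora was at 0.44 (limma adjusted p = 0.0681) and was not called.

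**Figure D2:**
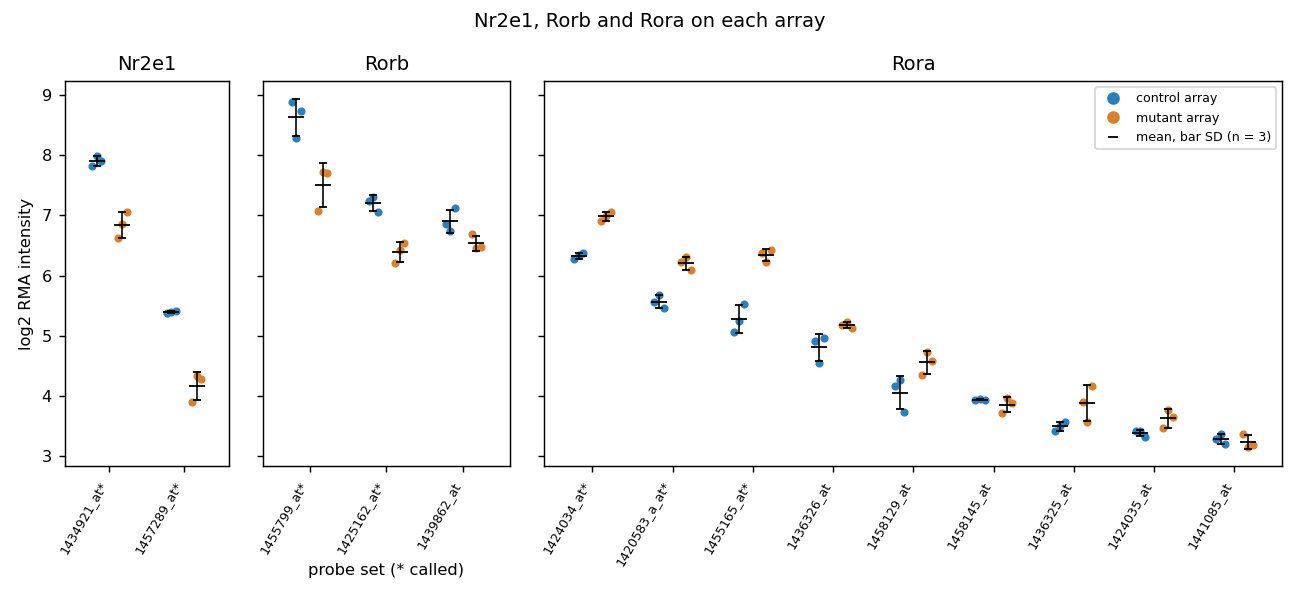
Log2 RMA intensity of every probe set of Nr2e1, Rorb and Rora on the 3 control (blue) and 3 mutant (orange) arrays, with the mean and SD of each group; an asterisk marks a called probe set. The mutant points lie below the control points on all probe sets of Nr2e1 and Rorb and above them on the 3 brightest of Rora, and the groups overlap on 3 dimmer probe sets of Rora.

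The COUP-TF genes differed little between the groups. Nr2f1, which encodes COUP-TFI, had 1 probe set, 1418157_at, with log2 intensities of 10.24, 10.22 and 10.24 in control and 10.22, 10.23 and 10.24 in mutant RPCs. The groups overlapped, with a log2 fold change of -0.005 (95% interval -0.13 to 0.12, limma adjusted p = 0.970). Nr2f2, which encodes COUP-TFII, had 6 probe sets, and on the brightest, 1416159_at, the log2 intensities were 7.75, 7.67 and 7.80 in control and 7.80, 8.01 and 7.93 in mutant RPCs. The groups overlapped at 7.80, and the log2 fold change was 0.17 (95% interval -0.01 to 0.35, limma adjusted p = 0.26). Over the 6 it ranged from -0.08 to 0.17, and the groups overlapped on each. Nr2f6 encodes a relative of both that represses transcription. On its brighter probe set, 1460648_at, the log2 intensities were 8.39, 8.32 and 8.40 in control and 8.18, 8.28 and 8.31 in mutant RPCs. The mutant arrays were lower by a narrow margin, with a log2 fold change of -0.11 (95% interval -0.27 to 0.04, limma adjusted p = 0.362), and on 1460647_a_at it was -0.02 with overlapping groups.

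The testicular receptors, which act together as a repressor, did not pass the test either. Nr2c1 on its brightest probe set, 1418605_at, had log2 intensities of 6.10, 6.03 and 6.01 in control and 6.23, 5.98 and 6.13 in mutant RPCs. The groups overlapped, with a log2 fold change of 0.07 (95% interval -0.11 to 0.25, limma adjusted p = 0.666). Its 5 probe sets all had positive values, from 0.06 to 0.25, and overlapping groups. Nr2c2 on 1454851_at had log2 intensities of 8.52, 8.54 and 8.50 in control and 8.41, 8.45 and 8.42 in mutant RPCs. All mutant arrays were lower, by a log2 fold change of -0.09 (95% interval -0.22 to 0.04, limma adjusted p = 0.391). Its 6 probe sets ranged from -0.18 to 0.01.

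Nr6a1, the germ cell nuclear factor, was read by 5 probe sets. On the brightest, 1428825_at, the log2 intensities were 3.95, 4.08 and 3.99 in control and 4.0, 4.24 and 4.13 in mutant RPCs. The groups overlapped, with a log2 fold change of 0.12 (95% interval -0.07 to 0.30, limma adjusted p = 0.45). 1428826_at, from the same source sequence, had log2 intensities of 3.03, 3.32 and 3.35 in control and 3.58, 4.0 and 3.84 in mutant RPCs. There the mutant arrays were all higher, with a log2 fold change of 0.57 (95% interval 0.26 to 0.88, limma adjusted p = 0.0565), or 1.49-fold, just under the 1.5-fold limit. It was called without control replicate 3 (0.63), without mutant replicate 1 (0.69) and when the quantile normalization was repeated (0.59). The other 3 ranged from -0.09 to 0.14.

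Of the 39 probe sets, 14 had a mean log2 intensity below 3.70, the median of all probe sets, and 0 of these 14 were called. Among the 32 that were not called, 27 had a 95% interval within the 1.5-fold limits. An unadjusted p under 0.05 was reached by 14 of the 39, against 20.8% of all probe sets, and several of the 14 read the same gene.

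**Figure D3:**
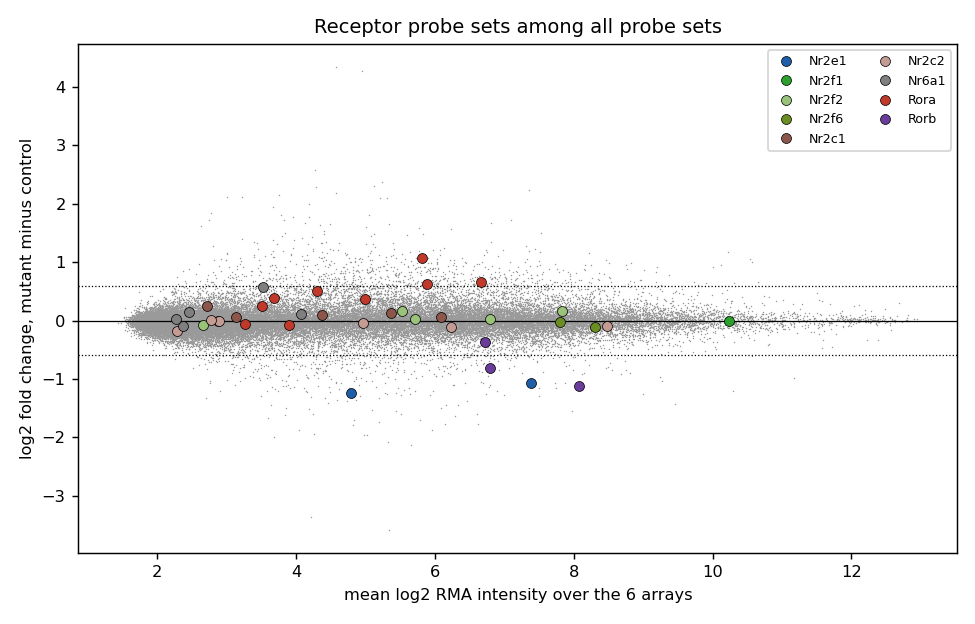
Log2 fold change (mutant minus control) against the mean log2 RMA intensity over the 6 arrays, for all 45037 probe sets (grey) and the 39 probe sets of the receptors (coloured by gene); dotted lines mark 1.5-fold. The called probe sets of Nr2e1, Rorb and Rora lie at mean levels between 4.79 and 8.07, above the median of 3.70, and Nr2f1 is the receptor farthest to the right, at 10.23.

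The genes with the most similar array profiles were sought among 11263 genes with a mean level above the median, by the root mean square distance between profiles centred on their own means over the 6 arrays. Nearest to Nr2e1 were Vxn (distance 0.09 on the log2 scale), Irs4 and Dkk3 (both 0.11), and Cadps and Sfrp2 (both 0.12). Dkk3 and Sfrp2 encode secreted Wnt regulators that are among the RPC markers. Nearest to Rorb were Shisa2 (0.22), Dusp9 (0.22), Ank2 (0.24), Ube2d-ps (0.25) and Nr2e1 itself (0.26). Nearest to Rora were Vit, Rhoj, Islr2, Gpr180 and Syt1, at distances of 0.04 to 0.06. Rhoj is a small GTPase of endothelial cells, and Islr2 and Syt1 are known from neurons. These distances describe 6 arrays and include the difference between the groups.

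Other nuclear receptors were counted from a list of 40, of which 35 had a probe set of their own. Called higher were 4 (2.28% of all genes were), none was called lower (0.918% of all genes), and the median log2 fold change was 0.02 (-0.01 over all genes by their brightest probe set). Rxrg, the retinoid X receptor of cone precursors, had log2 intensities of 4.70, 4.52 and 4.51 in control and 5.53, 5.71 and 5.59 in mutant RPCs, which gives a log2 fold change of 1.03 (limma adjusted p = 0.00315). Rarb, a retinoic acid receptor that retinoic acid itself induces, had 6.01, 5.66 and 5.70 in control and 6.50, 6.46 and 6.58 in mutant RPCs, which gives a log2 fold change of 0.72 (limma adjusted p = 0.0133). The groups were apart for both, as they were for Nr4a3, an immediate early gene (0.67, limma adjusted p = 0.0251). Esrrg, an oestrogen-related orphan receptor, had 3.47, 3.41 and 2.47 in control and 4.11, 4.35 and 4.17 in mutant RPCs, with control array 3 far below the others. Its log2 fold change was 1.09 (limma adjusted p = 0.0575), and it was not called without any 1 of the mutant arrays (adjusted p = 0.142 to 0.168). The other probe sets of Esrrg (-0.13 and 0.23) and of Nr4a3 (-0.02 and 0.12) were not called, and Nr4a3 was not called without control replicate 2 (0.54).

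Of 25 cofactors of nuclear receptors, 23 were measured, and 1 was higher (2.28% of all genes) and 1 lower (0.918% of all genes), each 1 gene of 23. Bcl11b, which encodes a zinc finger protein that binds COUP-TFs, rose by 0.70 on the log2 scale (limma adjusted p = 0.00829), while its other 3 probe sets were not called. Rcor2, a partner of the histone demethylase Kdm1a that is also recruited by Nr2e1, was at a log2 fold change of -0.61 (limma adjusted p = 0.00921), and of -0.56 without mutant replicate 1, which was not called. Kdm1a itself was at -0.08 and was not called. The median of the list was 0.01.

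Genes described downstream of each receptor were counted from fixed lists. For Nr2e1, 6 of 9 genes were measured and none was called. Of these 6, 3 had an unadjusted p under 0.05 in limma (20.8% of all probe sets did), and the median log2 fold change was 0.04. The lowest p values were those of Ccnd1, the cyclin of RPC division, at 10.01, 10.16 and 10.14 in control and 9.80, 9.84 and 9.77 in mutant RPCs, and of the phospholipase gene Plce1. By the brightest probe set Ccnd1 was at a log2 fold change of -0.30 (limma adjusted p = 0.0486) and Plce1 at 0.37 (limma adjusted p = 0.0716). Both were under 1.5-fold on these probe sets, with groups apart. The paper reports reduced Ccnd1 transcript from its microarray analysis of these cells. The cell cycle inhibitor genes Cdkn1b (-0.01, 95% interval within the 1.5-fold limits) and Cdkn1a (0.18) were not called.

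For the COUP-TFs, 4 of 8 genes were higher (2.28% of all genes were) and none was lower (0.918% of all genes), with a median log2 fold change of 0.36 (-0.01 over all genes). They were the semaphorin and VEGF receptor genes Nrp2 (1.72, limma adjusted p = 0.0081) and Nrp1 (0.63, limma adjusted p = 0.0693), the vessel growth factor gene Angpt1 (1.34, limma adjusted p = 0.0277) and the mesenchymal transcription factor gene Foxc1 (0.83, limma adjusted p = 0.00906). The COUP-TF genes themselves were not called, and the markers of periocular mesenchyme, which include Foxc1, and of endothelium were higher on the same arrays (sums of 1035 to 1381 against 677 to 724, and of 1436 to 1555 against 854 to 1112). The part of those cells in the rise was not tested. The call of Nrp1 was lost on leaving out control replicate 1 or 2, or mutant replicate 1 or 3 (adjusted p = 0.135 to 0.189 in these fits). Pax6, the deleted gene, is also in this list. E2f1, a cell cycle transcription factor gene, was at -0.23 by its brightest probe set and was not called, while another of its probe sets was called lower (-0.75).

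For Nr6a1, Nr2c1 and Nr2c2, 13 genes were measured, 1 was higher and 1 was lower (2.28% and 0.918% of all genes), and the median was 0.01. Cyp26a1, which encodes an enzyme that breaks down retinoic acid, was lower (-1.88, limma adjusted p = 0.00039), and the embryonic globin gene Hbb-bh1 was higher (1.00, limma adjusted p = 0.0428). Hbb-bh1 was read by a probe set whose probes can match its relatives, and it was called in 1 of the 6 fits that left out an array, the one without control replicate 1. Hbb-y, another embryonic globin gene of the list, was at 0.07 (limma adjusted p = 0.656) and was not called. Pou5f1, the gene that Nr6a1 is best known for silencing, was at -0.13 and missed the call.

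For Rora and Rorb, 14 of 16 genes were measured, 2 were higher and 1 was lower (2.28% and 0.918% of all genes), and the median was 0.02. Crx, the homeobox gene of photoreceptor precursors, was higher (2.31, limma adjusted p = 0.00278), as was Pcp4, a calmodulin-binding protein gene of Purkinje cells (0.86, limma adjusted p = 0.0115). Foxn4, a gene of RPCs that give rise to amacrine and horizontal cells, was lower (-0.66, limma adjusted p = 0.0178), and was not called without control replicate 2 (-0.56). The clock genes of the list, Arntl (-0.23), Cry1 (0.16), Npas2 (0.21), Nfil3 (0.08) and Nr1d1 (0.02), were not called.

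**Figure D4:**
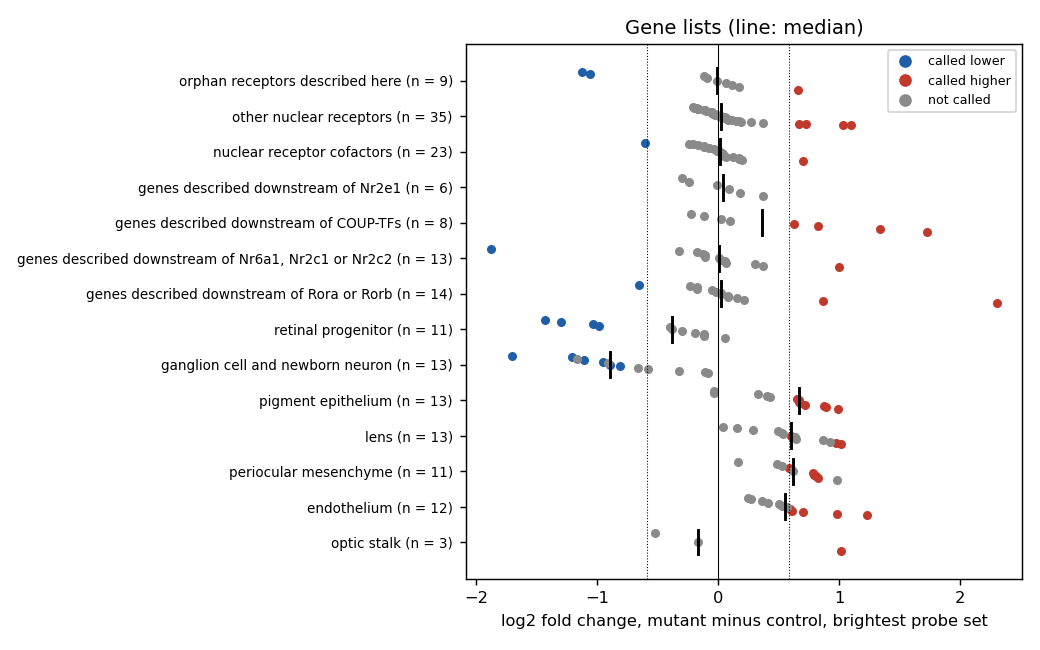
Log2 fold change (mutant minus control) of the 9 receptors described here, of the other nuclear receptors, their cofactors and described downstream genes, and of the cell type markers, each gene by its brightest probe set; a line marks the median of each list. Nr2e1 and Rorb are the blue points of the top row and Rora is its red point, and the medians of the RPC and newborn neuron markers lie to the left of 0 while those of pigment epithelium, lens, mesenchyme and endothelium lie to the right.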

How the data were processed

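Sorted RPCs of 3 control and 3 mutant pools were profiled on Affymetrix MOE430-2 arrays. Per the labels and the methods the authors summarised each probe set with RMA (Expression Console is also named in the submitters' processing notes, without versions). The deposited values are RMA intensity on a linear scale, with array medians of 12.9 to 13.1. Log2 of the intensity was taken here, and 64 control probe sets were left out. The 45037 remaining probe sets were fitted with limma 3.58.1 in R 4.3.3 (mutant against control, no covariate), and p-values were adjusted by Benjamini-Hochberg over all of them. Thresholds were those of the methods, which name no statistic besides SAM. The platform annotation gave 1 gene to 34945 probe sets, several to 932 and none here to 9160; each gene was read by its brightest probe set (highest mean level of the 6 arrays). The receptors and gene lists were chosen with earlier results of these data known.

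Values on every array were given for called probe sets, the brightest of each gene and those opposing a called one. Of other lists, mainly the called genes were named, or the 2 with the lowest p. Further members were chosen after their values were seen (Kdm1a, Cdkn1a, Cdkn1b, E2f1, Pou5f1, Hbb-y and the clock genes). Changes of probe sets of 1 gene were compared by exact permutation over arrays. Promoter windows were read from RefSeq sequences in Python 3.11.15, and all 9 receptors matched. The fits were tested on simulated data. The number of arrays limits the precision, and p-values measure the spread between pools. Alternatives were a replicate block, no moderation, a SAM-type statistic, a variance trend, array medians subtracted, quantile normalization repeated, the lowest 40% of probe sets left out, array weights, each array left out, the median of a gene's probe set levels on each array, and an adjusted p under 0.05 without a minimum fold.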

Additional observations from a re-analysis of the deposited data

How the results depend on the processing

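No value of a called probe set or gene named here changed sign under the alternatives, and values that were not called did so for at most 5 of the 39 receptor probe sets under any 1 of them. The 4 lower and 3 higher receptor probe sets were the same in number with the replicate number as a block, with a variance trend, after subtracting array medians, with array weights, without the lowest 40% of probe sets, and at an adjusted p under 0.05 with no minimum fold. An unmoderated test gave 282 higher and 178 lower probe sets in all, and the SAM-type statistic 133 and 104, against 752 and 443. The SAM-type rate is taken over the 20 splits of 3 arrays against 3. Its floor is therefore about 0.1, which is also the limit of a call. For this reason the SAM-type counts given here cannot test how firm a call is. Without moderation the lower receptor genes numbered 1 and the higher other nuclear receptors 1. Of the genes described downstream, 2 of the COUP-TF list and 0 of the Nr6a1, Nr2c1 or Nr2c2 list were higher. The list of genes downstream of Rora or Rorb had 1 higher and 0 lower. With the SAM-type statistic 2 receptor probe sets and 1 receptor gene were lower, 1 other nuclear receptor was higher, the cofactors had 0 higher and 0 lower, and the higher COUP-TF genes numbered 1, the Nr6a1, Nr2c1 or Nr2c2 genes 0, and the Rora or Rorb genes 1, with 0 lower. Rates just above the SAM-type floor were those of Rorb 1455799_at (0.102) and 1425162_at (0.1004) and Rora 1420583_a_at (0.101). These rates decide nothing about the 3 probe sets. The median of a gene's probe set levels follows the probe sets of middle level and is no average of the fold changes. With it 0 receptor genes (Rora was no longer called), 2 other nuclear receptors and 0 cofactors were higher. Of the genes described downstream of COUP-TFs 2 were lower, Pax6 (-1.60) and E2f1 (-0.75). Leaving out each array gave 544 to 787 higher and 342 to 504 lower probe sets, and 2 to 4 higher and 4 lower receptor probe sets. It gave 0 to 1 lower cofactor and 3 to 4 higher other nuclear receptors. Of the genes described downstream, 3 to 4 of the COUP-TF list and 0 to 1 of the Nr6a1, Nr2c1 or Nr2c2 list were higher. Of those downstream of Rora or Rorb 0 to 1 was lower. The replicate numbers do not pair the arrays: deviations of same-numbered arrays correlated at -0.0106 to -0.0006, and 0 arrays correlated best with their own number. With the replicate block 1136 probe sets were called, against 1195 without it, and of the genes named Nrp1 alone was no longer called (limma adjusted p = 0.132).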

Other observations

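Some genes of the lists had an adjusted p under 0.10 in limma with a difference under 1.5-fold, and were picked out after their values were seen. Among the other nuclear receptors these were Nr4a1 and Rxra, and the share of all genes at this adjusted p was not counted. Nr4a1, an immediate early gene like Nr4a3, had log2 intensities of 8.21, 8.28 and 8.11 in control and 8.63, 8.54 and 8.53 in mutant RPCs, a difference of 0.37 on the log2 scale (limma adjusted p = 0.0308). Rxra, a common partner of retinoic acid receptors, had 5.84, 6.08 and 5.98 in control and 6.24, 6.28 and 6.19 in mutant RPCs, a difference of 0.27 (limma adjusted p = 0.0966). The mutant arrays were above all control arrays for both. Of the cofactors, the maintenance DNA methyltransferase gene Dnmt1 was at -0.24 (limma adjusted p = 0.0933), and among genes described downstream of Nr6a1 the methyltransferase gene Dnmt3b was at -0.32 (limma adjusted p = 0.064).

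Designs of probe sets could be compared within a gene, since 10 pairs of receptor probe sets came from 1 source sequence each. The widest gap in log2 fold change was that of Nr6a1 1428825_at (0.12) and 1428826_at (0.57), and the next that of Rora 1424034_at (0.66) and 1424035_at (0.24). Rora 1436326_at (0.37) and 1436325_at (0.38) lay close together although their mean log2 intensities were 4.99 and 3.69.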
